A study of Drosophila melanogaster with 42 samples.

Results

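The genes described here encode the protein subunits of the cytoplasmic ribosome of the fruit fly Drosophila melanogaster, and the measurement is how open the chromatin at these genes was in early embryos. A gene belongs to the set if its Release 6 symbol starts with RpL or RpS and a digit. The annotation held 88 such genes, 50 of the large subunit (RpL) and 38 of the small subunit (RpS), among 13962 protein-coding genes. Of 20935 regions of 2114 bp that were tested in the mutants, 75 had their midpoint inside one of these genes or within 1 kb of one. These 75 regions covered 70 genes, and 5 genes (RpS5a, RpS15Aa, RpS4, RpL17 and RpL5) had 2 regions each. The genes lay on all major chromosome arms, with 18 on 2L, 19 on 2R, 13 on 3L, 23 on 3R, 14 on X and 1 on chromosome 4.

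Accessibility was measured by ATAC-seq, in which the transposase Tn5 cuts and tags open DNA in nuclei, in 42 libraries of whole embryos sorted by hand for morphology. Embryos came from 4 windows after egg laying: the first (1 to 1.5 h), the second (1.5 to 2 h), the third (2 to 2.5 h) and the fourth or last (2.5 to 3 h), the time in which control of development passes from maternal products to the embryo's own genome. Each of 14 groups had 3 libraries: wild type (Oregon-R, OreR), gd7 and zld- in all 4 windows, and cic6 in the third and the fourth. The labels give no replicate source beyond a number, so the spread between libraries may be partly technical. A library held 400 embryos in the earliest window, 100 in the next and 40 in each of the later ones. Zelda, the product of zld, is a pioneer factor that opens chromatin ahead of the onset of zygotic transcription. How zld- embryos were made is not in the labels; the names of their files refer to RNAi and depletion, so some Zelda may remain. The gd gene encodes a maternal protease needed for the dorsoventral axis, and embryos from gd7 mothers lack the nuclear gradient of Dorsal. Capicua, the product of cic, is a repressor that is relieved by receptor tyrosine kinase signalling at the embryo's poles. Whole embryos were used, so a change in the share of cells with an open site and a change in every cell cannot be told apart.

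Ribosomal protein genes are among the most highly transcribed genes of growing cells. In flies they are short, intron-bearing genes whose transcripts start at a special pyrimidine-rich initiator, the TCT motif, read by a transcription machinery that uses the TBP-related factor Trf2. The egg is stocked with maternal ribosomes and ribosomal protein mRNA, so the earliest embryo does not depend on new transcription of these genes. Several carry small nucleolar RNA (snoRNA) genes in their introns, which guide the modification of ribosomal RNA. In the annotation 28 of the 88 genes (31.8%) contained at least 1 snoRNA gene, against 0.688% of all protein-coding genes. They held 74 of 269 snoRNA genes, with 14 in RpS5a and 7 in RpS7. Their median length was 1325.5 bp, against 2160 bp for all protein-coding genes. A tested region is therefore often longer than the gene, and 54 of the 75 regions (72.0%) also overlapped another protein-coding gene, so a value belongs to the region and not to the ribosomal protein gene alone.

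The regions at ribosomal protein genes were among the most accessible of the study. In the authors' deposited tables the median of their mean normalized count (a count scaled for library size and averaged over the libraries of a table) was 1587 in the zld- table, against 769.9 for all regions. In the gd7 table it was 1945 against 891.9, and in that of cic6 it was 2086 against 873.0. The median member ranked at the 88.8th, 87.8th and 86.2nd percentile of these tables, and 58, 58 and 56 of the 75 regions lay in the top 20% of counts. This rank was not particular to the set. In the zld- table the median percentile was 87.1 at mitochondrial ribosomal protein genes, 84.2 at initiation and elongation factor genes and 87.4 at proteasome subunit genes. Among the 75 regions, RpL13A, RpS28a and RpL3 had the highest means over the 3 authors' deposited tables, with 2881, 3245 and 3290 normalized counts in the zld- table. RpL3 is a large subunit protein close to the peptidyl transferase centre. At the other end stood RpS10a, RpL10Aa and RpL22-like, with 511.0, 524.2 and 604.8 normalized counts in the authors' deposited zld- table. These 3 are copies of proteins that the genome encodes more than once, and the other copies RpS10b and RpL22 had 765.9 and 1505 normalized counts in the authors' deposited zld- table. RpL10Ab, the other copy of RpL10Aa, had no tested region in the tables used here.

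The other 17 genes without a tested region were RpL7A, RpS14a, RpS14b, RpS28b, RpL37A, RpS13, RpL31, RpS15, RpS18, RpL12, RpL39, RpL35A, RpS25, RpS5b, RpL27, RpL34a and RpL32. The nearest tested midpoint lay 1046 bp from RpS15, 1061 bp from RpL35A and 1076 bp from RpL27, and the farthest was 4480 bp from RpS25. Among these 18 genes, RpL10Ab included, 12 had a peak in at least 38 of the 42 libraries. The share of all protein-coding genes with a peak in that many libraries is not given here.

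Peaks called by the authors in each library separately showed open chromatin at nearly all of the genes. In the 12 OreR libraries 96.6% to 98.9% of the 88 genes had a peak overlapping the gene or the 1 kb on either side of it, with a mean of 97.7%, against 92.5% of all protein-coding genes. The mean was 96.4% in gd7 against 90.4% of all genes, 96.6% in cic6 against 91.7%, and 90.7% in zld- against 84.8%. The share at ribosomal protein genes was above that of all genes in 41 of 42 libraries. In OreR the share was 97.3% ± 0.635 in the first window, 98.5% ± 0.693 in the second window, 97.7% ± 1.15 in the third window and 97.3% ± 0.635 in the fourth window (SD, n = 3 each). In gd7 it was 93.9% ± 4.62 in the first window and 96.6% ± 3.0 in the second (SD, n = 3 each), with smaller SDs later. In zld- in the first window it was 70.1% ± 35.3 (SD, n = 3), and 2 of the 3 lists were short. Replicate 3 had only 6831 peaks and showed 30.7% of the genes, against 27.1% of all genes. Replicate 1 had 21324 peaks and showed 80.7%, against 64.1% of all genes. Replicate 2 had 41668 peaks and showed 98.9%, against 88.3%. Without replicate 3 in each window the zld- mean was 96.5%. Peak lists held 6831 to 58137 peaks, and reads per library are not given, so a missing peak does not show closed chromatin.

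In the earliest wild-type window 85 of the 88 genes (96.6%) had a peak in OreR replicate 1, against 86.6% of all protein-coding genes. Of the 88 genes, 78 had a peak in all 12 OreR libraries, and across all genotypes 74 had one in at least 40 libraries. The matching shares over all protein-coding genes are not given here for these last counts. The genes with a peak in the fewest libraries were RpL12 with 20, RpS5b with 22, RpL32 and RpL22-like with 31 each and RpS18 with 33. RpS5b is a copy known for its use in the ovary, and its partner RpS5a had a peak in all 42 libraries. RpL32, formerly rp49, is a common reference gene for mRNA measurements. RpL12 had a peak in 7 of 12 OreR, 9 of 12 zld- and 4 of 12 gd7 libraries, and in 0 of 6 cic6 libraries.

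When each list was reduced to its strongest 6831 peaks by the authors' −log10 p, the length of the shortest list, ribosomal protein genes stood higher than other genes. The share with such a peak had a median of 54.5% over OreR libraries (22.7% to 78.4%), against 30.8% (20.6% to 42.7%) of all protein-coding genes. It was higher than the share of all genes in all 12 OreR, all 12 gd7 and all 6 cic6 libraries and in 11 of 12 zld- libraries. The exception was zld- replicate 3 in the second window, with 18.2% against 23.5%. Peak widths differed less: a peak with its summit in the gene or within 250 bp of it had a median width of 730 bp, against 644 bp for the peaks of all genes. They were wider than those of all genes in 33 of 42 libraries, but in zld- in 7 of 12, with medians of 643.5 and 647.8 bp.

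Summits sat close to the ends of the genes. The gene table gives no strand, so a start and an end of transcription could not be told apart. In OreR 69.2% of the genes with an own summit (in the gene or within 250 bp of it) had it within 150 bp of a gene end, the median over libraries, against 30.8% of all genes. Because ribosomal protein genes are short, the comparison was repeated with all protein-coding genes in the same length range, 304 to 4677 bp, and gave 32.8%. This range runs from the shortest to the longest member. Lengths within it were not matched, so the part played by gene length was not tested. The share was above that of genes in the same length range in all 42 libraries. Over all libraries the median distance from summit to gene end was 63 bp, against 323 bp for all genes. Of 69 genes with an own summit in at least 30 libraries, 30 had summit positions with an interquartile range of at most 50 bp, and 47 had the summit nearest to the same gene end in at least 90% of these libraries. The matching shares over all protein-coding genes are not given here for these counts. At RpL7 the summit lay 51 bp from the gene end with an interquartile range of 1 bp over 42 libraries, and at RpL37-1 it lay 28 bp from the end with a range of 5 bp. At RpL17 the interquartile range was 2101 bp over 41 libraries.

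The rank of these peaks within their lists differed between windows, which also depends on the other peaks of a list. In OreR in the second window the share of ribosomal protein genes with a peak among the strongest 6831 was 31.4% ± 8.56 (SD, n = 3), with 39.8%, 31.8% and 22.7% in the 3 libraries. In the other windows it was 65.1% ± 9.48 in the first window, 50.8% ± 6.65 in the third window and 65.5% ± 12.1 in the fourth window (SD, n = 3 each). All 3 libraries in the second window lay below all 9 of the other windows, whose lowest value was 43.2%. The share of all protein-coding genes was also lowest there, with means of 33.6%, 22.6%, 29.6% and 36.5% from the first to the fourth window. The share of own summits within 150 bp of a gene end moved with it, from 70.8% in the first window to 37.4% in the second window and 68.6% and 79.5% in the later windows. All protein-coding genes moved the same way, from 34.3% to 13.1%, 28.6% and 38.5%. In zld- the near-end share was also lowest in the second window, with 38.4%, and in gd7 it was 64.9% in that window and 65.2% to 79.2% in the others. In zld- replicate 3 had the lowest near-end share of its group in every window, with 47.6%, 17.9%, 29.0% and 40.8%, against 36.4% to 81.9% in the other zld- libraries. The plot of peak lists by library shows each library.

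**Figure D1:**
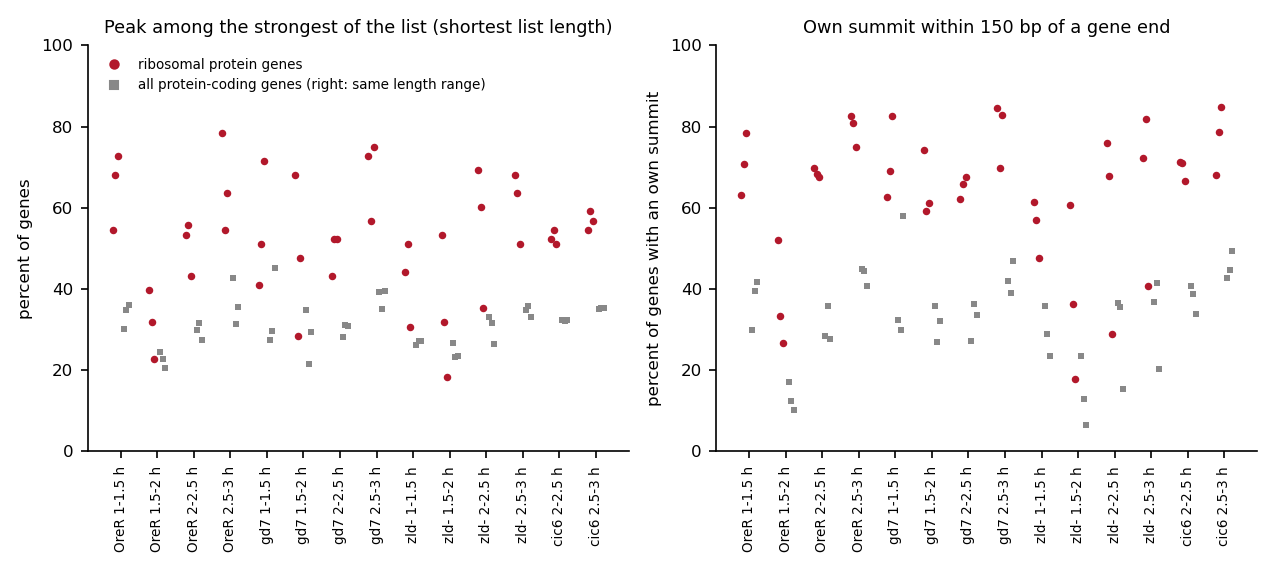
Percent of ribosomal protein genes (circles) and of all protein-coding genes (squares) with a peak among the strongest 6831 of each list (left), and percent of genes with an own summit that had it within 150 bp of a gene end (right, squares limited to genes of 304 to 4677 bp); each point is 1 of 42 libraries, 3 per group. Ribosomal protein genes lie above the squares in nearly all libraries, and the OreR libraries in the second window lie lowest of OreR in both panels.

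Depending on mutant and window, between 0 and 30 of the 75 regions were called. Calls are those of the authors' deposited tables at an adjusted p under 0.05 in a comparison of mutant and OreR libraries of the same window, and percentages in brackets are the share of all tested regions with the same call. In zld- 14 of 75 regions were lower in the first window (15.6%) and 1 was higher (10.4%). In the second window 4 were lower (7.49%) and 2 higher (4.66%), and in the third window 4 were lower (13.4%) and 4 higher (7.82%). In the fourth window 9 were lower (17.1%) and 4 higher (14.0%). In gd7 no region was called in the first window, where the smallest adjusted p of a member in the authors' deposited table was 0.423 (4.01% of all regions lower, 4.47% higher), or in the third window, where it was 0.676 (3.45% lower, 2.09% higher). In the second window in gd7 0 were lower (7.47%) and 10 higher (7.86%), and in the fourth window 2 were lower (8.19%) and 0 higher (3.81%). In cic6 3 were lower (22.8%) and 27 higher (26.2%) in the third window, and 4 were lower (13.7%) and 2 higher (14.0%) in the fourth window.

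Counted over windows, 17 regions were lower in zld- in at least 1 window, or 22.7%, against 27.5% of all regions, and 7 were higher, or 9.33%, against 21.4%. In gd7 2 were lower, or 2.67%, against 13.2%, and 10 higher, or 13.3%, against 12.6%. In cic6 5 were lower, or 6.67%, against 25.7%, and 27 higher, or 36.0%, against 28.4%. The same OreR libraries served as controls for all 3 mutants, so their values are given side by side and not as independent results.

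**Figure D2:**
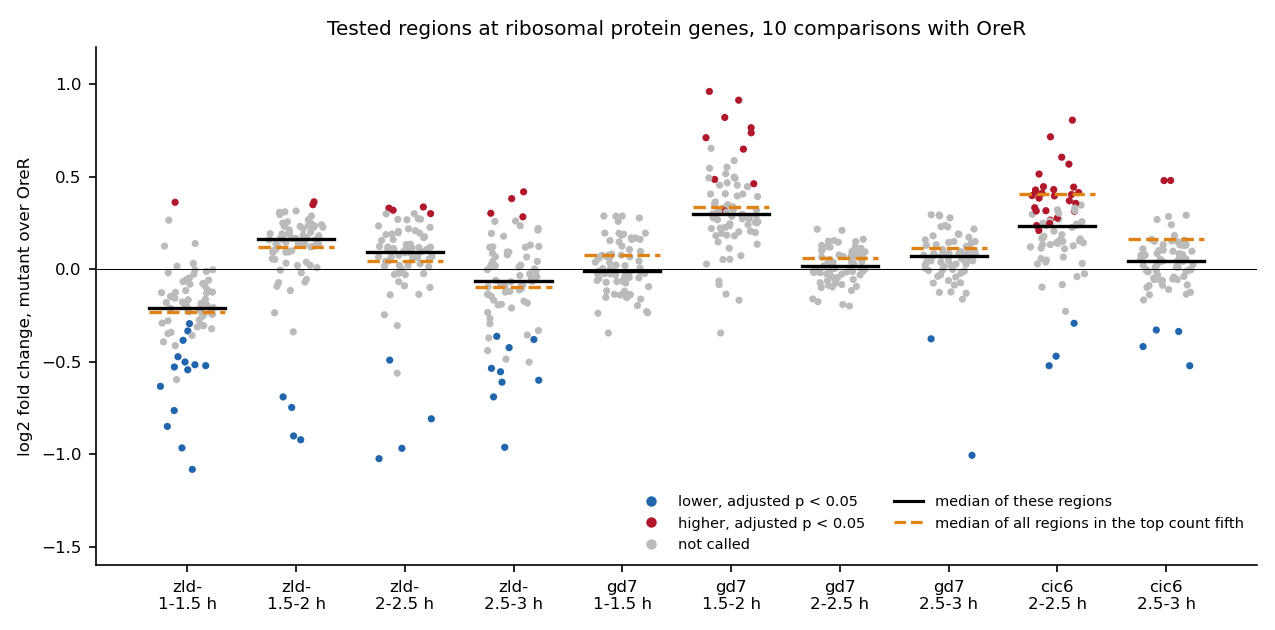
Deposited log2 fold change of mutant over OreR for each of the 75 regions at ribosomal protein genes in 10 comparisons; blue and red points were called at adjusted p under 0.05, black lines are the medians of the 75 regions and dashed lines the medians of all tested regions in the top 20% of mean count. The medians of the 75 regions range from -0.21 to 0.30, and a few regions fall to about -1 in zld-.

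The medians of the set are given beside those of the most accessible regions, which they lay close to in zld- and gd7 but below in cic6. In zld- in the first window the median log2 fold change of the 75 regions in the authors' deposited table was -0.21, with 69 regions below 0, while the median of all regions was -0.01 and that of all regions in the top 20% of counts -0.23. In gd7 in the second window the member median was 0.30, with 70 regions above 0, against -0.01 for all regions and 0.34 for the top 20%. In cic6 in the third window it was 0.24, with 67 above 0, against -0.02 for all regions and 0.41 for the top 20%. When the median of all regions of similar mean count was subtracted, these medians became -0.02, 0.02 and -0.09, so the sign reversed in cic6. It also reversed in comparisons with medians nearer 0: zld- in the fourth window (-0.07 to 0.02), gd7 in the third (0.02 to -0.03) and the fourth (0.07 to -0.04), and cic6 in the fourth (0.04 to -0.09). With that trend removed, the calls in cic6 in the third window were 9 lower (11.6%) and 3 higher (13.7%) in place of 3 and 27. Percentages in brackets are again the share of all tested regions with the same call, under the same scaling. In gd7 in the second window they were 1 lower (6.17%) and 1 higher (5.02%) in place of 0 and 10. For zld- in the first window the calls were 6 lower (13.2%) and 1 higher (9.02%) in place of 14 and 1. The split of lower against higher calls moved in other windows too. For zld- it went to 4 (9.05%) and 0 (2.24%) in the second window and 4 (14.2%) and 2 (5.93%) in the third window. In the fourth window it was 6 (17.0%) and 5 (13.1%) in zld-, and 6 (9.46%) and 1 (11.9%) in cic6. Centring on the median of all regions gave 34 higher (27.7%) and 3 lower (20.5%) in cic6 in the third window. For cic6 in the fourth window it gave 5 higher (15.2%) and 4 lower (12.5%). For zld- in the second window it gave 0 higher (2.93%) and 4 lower (8.62%). The plot of log2 fold change against mean count shows the members beside the medians of all regions.

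**Figure D3:**
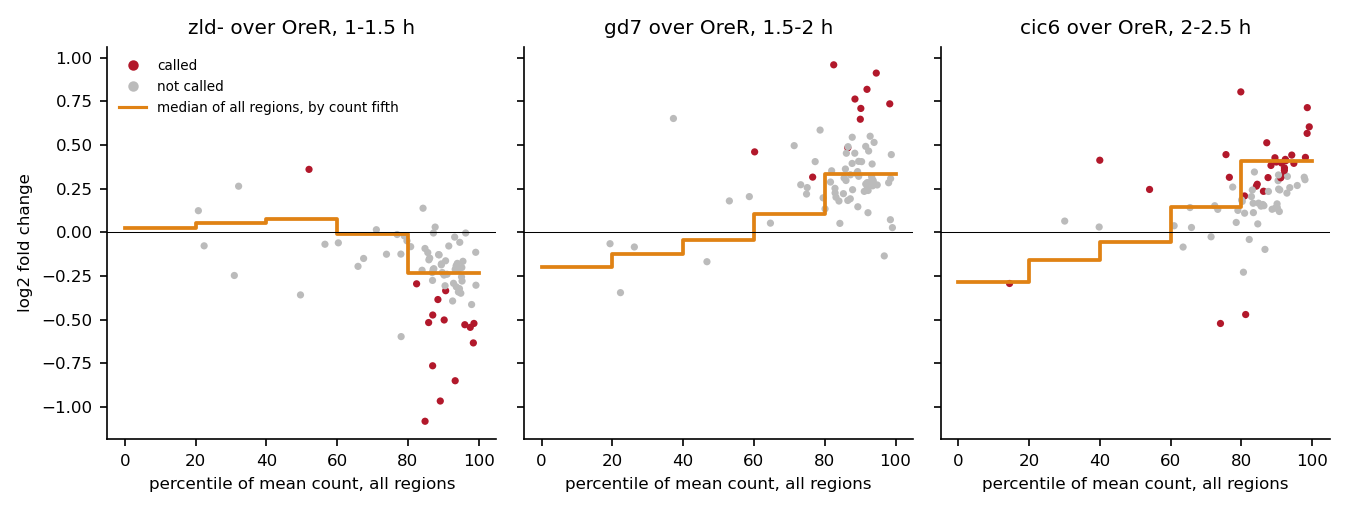
Deposited log2 fold change of the 75 regions against their percentile of mean normalized count among all tested regions, for zld- in the first window, gd7 in the second window and cic6 in the third window; the stepped line is the median of all tested regions in each 20% of counts, from -0.28 to 0.41 in cic6. Most members lie near the line at the right, and called members (red) lie on both sides of it.

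In zld- RpL13A and RpL34b, both of the large subunit, were lower in all 4 windows. For RpL13A (chromosome 3R, 5624474 to 5625947) the authors' deposited table gave log2 fold changes of -0.52, -0.90, -1.02 and -0.96 from the earliest to the latest window, with standard errors of 0.17 to 0.18 and adjusted p of 0.0168, 6.82e-06, 7.69e-08 and 3.90e-07. For RpL34b (3R, 9400237 to 9401226) the authors' deposited table gave -0.54, -0.92, -0.97 and -0.69, with adjusted p of 0.0088, 1.24e-06, 1.27e-07 and 0.00025. These values sum over a region of 2114 bp, and the summits of the peak lists give positions within it.

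Each of these genes had a summit near a gene end and another farther from it, called the outlying site here. The sites were picked out after the summit positions had been seen, so they are a description, and the fold enrichments are the authors' values. Fold enrichments of different lists are on different scales, so values of several genotypes side by side show no change; the percentile of a summit by fold enrichment within its own list is given beside them. At RpL34b one summit lay 31 bp inside a gene end, and another lay outside the opposite end, at a median of 958 bp from it, within the odorant receptor gene Or85f. From 1.5 h on, the outlying summit was listed in all 9 OreR libraries with fold enrichments of 2.68 to 4.37, and it was the stronger of the pair in all 6 libraries that listed both. In OreR in the fourth window the outlying summit had 2.99, 2.68 and 4.37, and the near-end summit 2.63, 2.49 and 2.77. In zld- from 1.5 h on, the outlying summit was listed in 4 of 9 libraries with 1.53 to 1.81. The near-end summit was listed in 7 of these 9 libraries with 2.08 to 3.55, and it was the stronger in all 3 that listed both. In gd7 the outlying summit was listed in all 12 libraries and in cic6 in all 6, at 5.25 to 7.58 in cic6. Its median percentile within a list from 1.5 h on was 88.3 in OreR, 83.7 in gd7, 90.2 in cic6 and, where listed, 9.5 in zld-.

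At RpL13A both positions lay at or in the gene. In OreR in the first window all 3 libraries had their summit near a gene end, 36 bp outside it as the median, with fold enrichments of 4.15, 5.20 and 4.41. In OreR in the second window all 3 libraries had it 589 bp inside the gene, with 3.37, 3.32 and 3.79, and all 3 libraries in the third window had it inside as well. Where 1 peak covers both positions, a list names only the stronger. In zld- all 12 libraries listed the summit near the gene end, and from 1.5 h on 0 of 9 libraries listed the internal one, against 7 of 9 in OreR and 5 of 9 in gd7. In cic6 all 6 libraries listed the internal summit, with 4.93 to 7.81, and 0 of 6 the near-end one. The median percentile of the internal summit within a list from 1.5 h on was 91.9 in OreR, 90.5 in gd7 and 90.7 in cic6. Without zld- replicate 3, left out after its peak lists had been seen, the outlying site was listed from 1.5 h on in 0 of 6 zld- libraries at RpL13A and 2 of 6 at RpL34b, and the near-end summit in 6 of 6 at each gene.

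**Figure D4:**
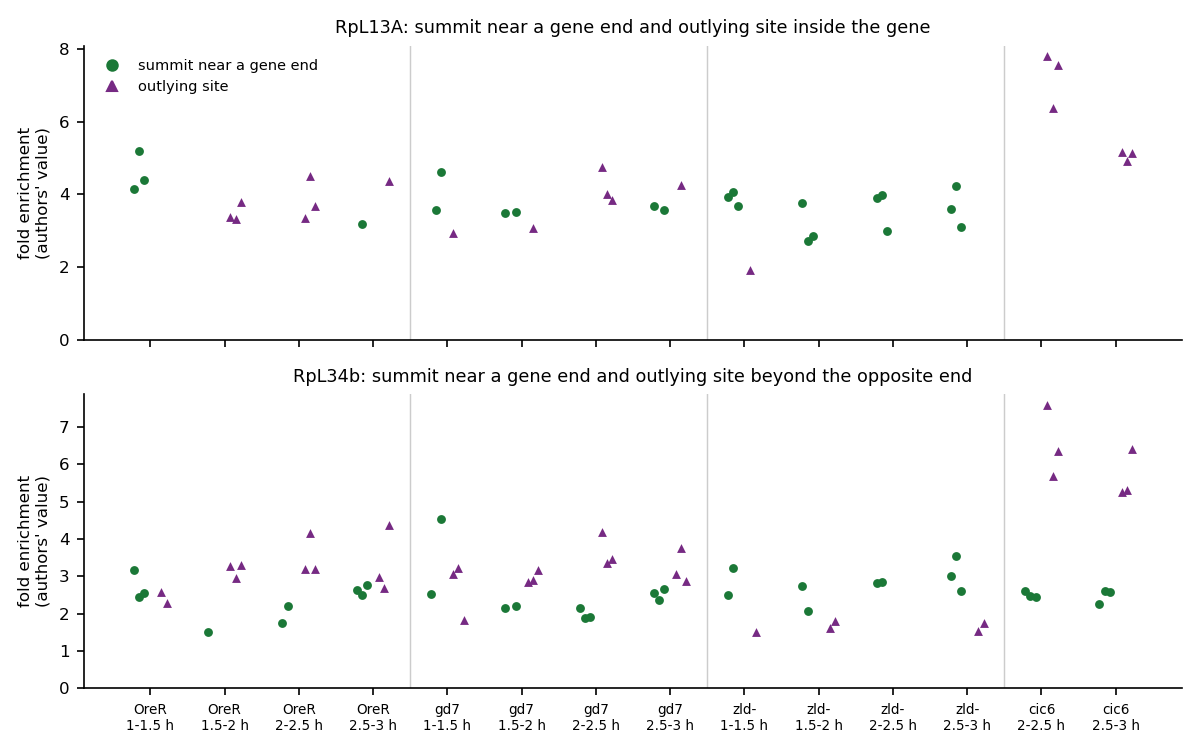
Fold enrichment (the authors' value, linear axis from 0) of the summit near a gene end (circles) and of the outlying site (triangles) at RpL13A and RpL34b, 1 symbol per library that listed the summit, 3 libraries per group. In zld- the circles are present in most libraries and the listed triangles are at most 1.92, and in cic6 the triangles lie at 4.93 to 7.81; heights are on the scale of each list and are not comparable between genotypes.

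Both genes were higher in cic6. The authors' deposited table gave RpL34b a log2 fold change of 0.71 (adjusted p = 1.20e-05) in the third window and 0.48 (adjusted p = 0.00733) in the fourth window, and RpL13A 0.60 (adjusted p = 0.000237) and 0.29, the last not called. In gd7 the authors' deposited table had RpL13A between 0.03 and 0.12 and RpL34b between 0.07 and 0.24 in the 4 windows, neither of them called.

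RpL10, a large subunit protein that joins the subunit late in its assembly, was called in all 3 mutants. In zld- the authors' deposited table gave -1.08, -0.75, -0.31 and -0.60 over the windows (adjusted p = 6.64e-07 and 0.0015 in the first and the second, 0.00681 in the last), the third not called. In gd7 it was higher in the second window only, by 0.65 (adjusted p = 0.0148), and in cic6 it was lower, at -0.47 (adjusted p = 0.00242) and -0.42 (adjusted p = 0.0113) in the authors' deposited tables. RpL10 also had an internal summit, 594 bp from a gene end, beside one 48 bp outside that end. The internal summit was listed in all 12 OreR and all 12 gd7 libraries, in 6 of 12 zld- and in 2 of 6 cic6 libraries. The near-end summit was listed in 7 of 12 OreR, 6 of 12 gd7, 8 of 12 zld- and all 6 cic6 libraries.

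RpL10 is also one of 6 ribosomal protein genes next to a centromere or on the small chromosome 4, regions rich in heterochromatin. The others are RpL21 and RpL5 on 2L, RpL38 on 2R, RpL15 on 3L and RpS3A on chromosome 4, with 7 tested regions in all. This grouping was made after their values were seen and carries no test. In zld- in the first window the authors' deposited table called 5 of the 7 regions lower, with a median log2 fold change of -0.77 against -0.19 for the other 68 regions. Of all 3199 tested regions near a centromere or on chromosome 4, 201 were called lower there. Within the 7, RpL10 had -1.08, RpL38 -0.97 (adjusted p = 0.000103), RpL5 -0.85 (0.000564), RpL15 -0.77 (0.00206) and RpS3A -0.63 (0.0348). RpL21 was at -0.60 and was not called, and the other RpL5 region was at -0.20. In the next windows the median of the 7 was -0.07 and -0.02, and in the fourth window it was -0.49, against -0.05 for the other regions, with RpL38 and RpL10 called lower.

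In gd7 in the second window these regions went the other way. The authors' deposited table called 6 of the 7 higher, at 0.96 for RpL21 (adjusted p = 0.00053), 0.91 for RpL5 (0.00144), 0.82 for RpL38 (0.00798), 0.76 for RpL15 (0.014), 0.74 for RpS3A (0.042) and 0.65 for RpL10. Their median was 0.76, against 0.29 for the other 68 regions, of which 4 were called higher: RpL9, RpL24, RpS12 and RpS5a. In the other gd7 windows the median of the 7 was -0.15, 0.02 and 0.07 and none was called. All 3199 tested regions near a centromere or on chromosome 4 had medians of 0.22 in zld- in the first window and -0.09 in gd7 in the second window in the authors' deposited tables. Of the 3199, 304 were called higher in gd7 in the second window. These 3199 regions had lower counts than the 7, with median counts of 840.1 against 1506 for zld- and 942.1 against 2119 for gd7. With the trend of mean count removed, gd7 in the second window had 1 higher call among the 75 regions in place of 10. Over all tested regions 5.02% had that call. The plot of the centromere-near genes over time shows their lines beside those of the other members, with overlap. One RpL5 region lay among the other members in zld- in the first window (-0.20) and in gd7 in the second window (0.05). In gd7 in the second window RpS12 (0.71) and 1 region of RpS15Aa (0.65) were as high as RpL10.

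**Figure D5:**
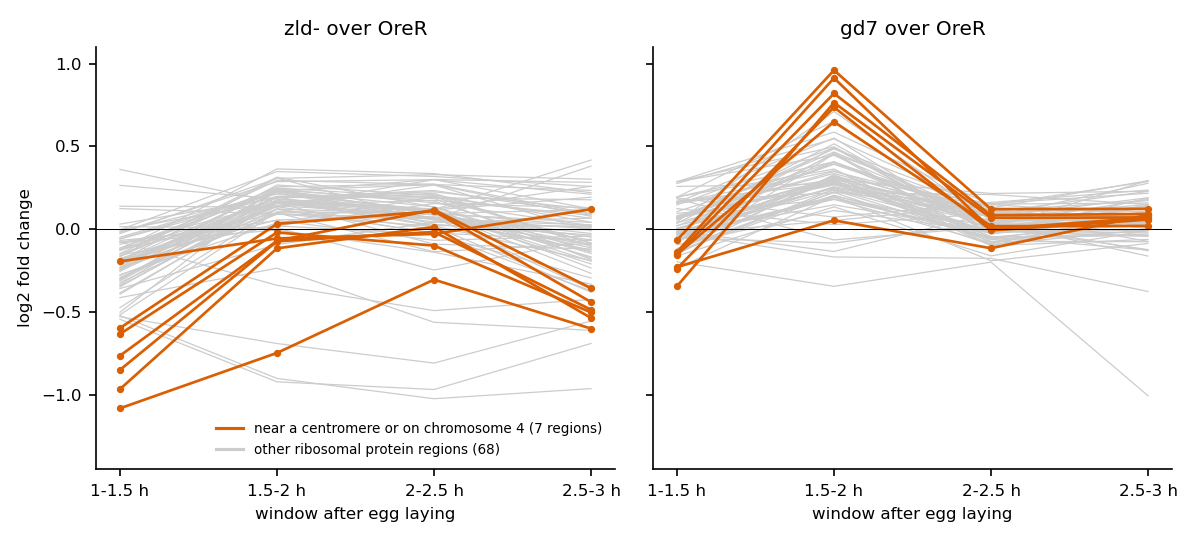
Deposited log2 fold change over the 4 windows for the 7 regions near a centromere or on chromosome 4 (orange) and the other 68 regions at ribosomal protein genes (grey), in zld- and in gd7. The orange lines have medians of -0.77 in zld- in the first window and 0.76 in gd7 in the second window, and range from -0.31 to 0.12 in zld- in the third window.

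Other regions were lower in zld- in fewer windows. In the authors' deposited table RpL10Aa fell by 0.49 in the third window (adjusted p = 0.00434) and by 0.42 in the fourth window (adjusted p = 0.0123), and RpS2 fell by 0.39 and 0.36 in the first and the fourth window. RpS12, RpS26, RpS29, RpL23 and 1 region of RpS4 were lower in the first window only among the called windows, with log2 fold changes from -0.52 to -0.30 in the authors' deposited table. The higher calls in zld- were smaller than 0.5 in every case. RpL9, RpL41, RpL8 and RpL24 were each higher in 2 windows, between 0.28 and 0.36, and RpL22-like (0.42), RpS10a (0.38) and RpL37-2 (0.36) in 1 window each.

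In gd7 the lower calls were in the fourth window, where the authors' deposited table gave RpL10Aa -1.01 (SE 0.17, adjusted p = 8.06e-08) and RpL37-2 -0.38 (adjusted p = 0.0126). The nearest other protein-coding gene to RpL10Aa, dpr9, lies 18147 bp away. RpL10Aa was also lower in zld- and higher in cic6 in the third window (0.41, adjusted p = 0.00057). RpL10Aa, RpL10, RpS12 and RpL9 were each called in all 3 mutants, the last higher in each. The share of all tested regions called in all 3 is not given here, and the OreR controls are shared. RpS12 was lower in zld- in the first window (-0.50), higher in gd7 in the second window (0.71) and higher in cic6 in the third window (0.43) in the authors' deposited tables.

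In cic6 the largest effect was at RpL17, where the authors' deposited table gave 0.80 (SE 0.11, adjusted p = 2.18e-12) in the third window and 0.48 (adjusted p = 9.63e-05) in the fourth window in the region with the gene's lower coordinate. Its other region was at 0.45 (adjusted p = 0.000986) and 0.11. In the cic6 lists in the third window a summit about 700 bp inside RpL17 was stronger than the one 257 bp outside the gene in all 3 libraries, with median fold enrichments of 5.69 and 4.53. In OreR of the same window the internal summit was the stronger in 1 of 3 libraries, with medians of 2.64 and 2.93. In cic6 in the fourth window, where the region was also called higher, the internal summit was the stronger in 0 of 3 libraries, with medians of 3.30 and 4.50. In gd7 in the third window, where it was not called, the internal summit was the stronger in both libraries that listed the pair. RpS28a (0.57, adjusted p = 0.00187) and RpL22 (0.51, adjusted p = 0.000143) followed RpL34b and RpL13A among the higher regions of the authors' deposited table. With the trend of mean count removed, 13 of the regions called higher in the third window and reported here turned negative, RpS28a among them at -0.04. Regions lower in cic6 included RpL13 (-0.52 in both windows, adjusted p = 5e-06 and 7.01e-06), RpL10 in both windows, RpS10a (-0.29) in the third window, and RpS27A (-0.34) in the fourth window in the authors' deposited table. RpS27A is made as a fusion with ubiquitin, and its region overlaps Ip259 and Ir31a.

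Some copies of the same protein are given side by side. RpL22 had an own summit in 42 libraries at a median percentile of 91.2 by fold enrichment, and RpL22-like, a copy best known from the testis, in 28 libraries at 30.5. RpL37-1 stood at 91.8 and RpL37-2 at 47.8, with own summits in 42 and 23 libraries. RpL7 had an own summit in 42 libraries and RpL7-like in 16, and RpS5a in 42 and RpS5b in 20. The neighbouring genes RpS14a and RpS14b, which lie next to each other on X, had an own summit in 3 and 39 libraries. RpS28a (93.1) and RpS28b (78.7) both ranked high. RpS10a had an own summit in 35 libraries at 42.6, and RpS10b in 17 at 70.2. RpL34b stood at 53.1 and RpL34a at 26.9. In RpL22 and RpL22-like the effects in zld- in the fourth window were -0.09 (not called) and 0.42 (adjusted p = 7.94e-05) in the authors' deposited table, and in cic6 in the third window 0.51 and 0.06. No test compared the copies with each other.

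Whether an effect changed over time was tested at each region by subtracting the log2 fold change of the first window from that of the last, a Wald test with Benjamini-Hochberg adjustment over all regions. In zld- 2 of the 75 regions passed (10.2% of all regions did), in gd7 0 (1.1%) and in cic6 0 (0.148%). For a region beside RpS4 the effect rose from -0.52 in the first window to 0.12 in the fourth window, a difference of 0.63 (SE 0.16, adjusted p = 0.00203). This region has its midpoint inside Syx13, 682 bp outside RpS4, and covers 15.1% of RpS4. The other RpS4 region, with its midpoint in the gene, did not pass. Its effects were -0.39 and -0.05, a difference of 0.35 (adjusted p = 0.421). For RpL37-2 the effect went from 0.36 to -0.12, a difference of -0.48 (SE 0.17, adjusted p = 0.0422). RpL13A and RpL34b did not pass this test.

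Other lists, chosen with earlier results known, held genes of protein synthesis, proteasome subunit genes and regulator genes. Medians of mitochondrial ribosomal protein, translation factor and proteasome genes lay near those of the set. The ribosomal proteins with other symbols, RpLP0, RpLP1, RpLP2, sta and Rack1, had 4 regions, of which 1 (RpLP0, -0.46, adjusted p = 0.0378) was lower in zld- in the first window and 4 were higher in cic6 in the third window in the authors' deposited tables. The 61 regions of mitochondrial ribosomal protein genes had medians of -0.14 in zld- in the first window, 0.29 in gd7 in the second window and 0.22 in cic6 in the third window, with 9 lower, 6 higher and 24 higher calls; over all tested regions 15.6%, 7.86% and 26.2% had these calls. The 68 regions of initiation and elongation factor genes had medians of -0.11, 0.23 and 0.21 in these comparisons, and the 43 regions of proteasome subunit genes -0.15, 0.20 and 0.18. In the same order and directions, calls numbered 9, 6 and 30 at the factor genes and 2, 2 and 18 at the proteasome genes. The cytoplasmic ribosomal protein regions had -0.21, 0.30 and 0.24, and no test compared the lists. Of 11 regions at 5 regulator genes, 4 were lower in zld- in the first window and 7 higher in cic6 in the third window in the authors' deposited tables, where 15.6% and 26.2% of all regions were. These 11 regions had a median count percentile of 96.6 and 97.0 in the tables of zld- and cic6. The 4 lower regions were looked up after their values were seen. One was at Clamp near the centromere of 2L, at -0.76 (adjusted p = 0.00285) in zld- in the first window in the authors' deposited table. The others were not near a centromere and had effects of similar size, at Trl on 3L (-0.77 and -0.71) and at zld on X (-0.72).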

How the data were processed

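ATAC-seq was done on 42 libraries in 14 groups of 3. Bowtie2 2.3.5.1, Picard 2.23.8, MACS2 2.2.7.1, DESeq2 and the build dm6 are named, per the submitters' processing notes, with no roles; any shift of reads for the Tn5 site was not found in these sources. The deposited peak lists, 1 per library, give the authors' score, fold enrichment over background (a ratio), −log10 p and q, and a summit; the score was not used. For each mutant a deposited table gives, per the file headers, a mean normalized count (a signal), a log2 fold change with its standard error, a test statistic, a p-value and its adjusted form for each of 20935 regions. No counts per library and no read depths come with them, so no count model was run, and intervals for counting error were not computed. In gd7 20928 regions had an adjusted p.

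Gene positions are RefSeq's for Release 6, without strand or sequence, so promoter motifs and distances from start sites were not analysed, and no sequence is shown. Regions were assigned by midpoint, inside a gene or within 1 kb. Coordinates are 1-based on dm6. Calls used the authors' adjusted p under 0.05. The change between windows was tested by a two-sided Wald ratio with Benjamini-Hochberg adjustment over all regions, and the code was tested on simulated data. Alternatives were a distance of 0.5 or 2 kb, an adjusted p under 0.01, a log2 size of at least 0.5, centring, removal of the trend with mean count in 20 groups, 1 region per gene, and other definitions of a peak at a gene. Named were genes without a tested region, those of highest and lowest count, those called in most windows of a mutant, called in opposite directions, with the largest effect, with copies, with a change between windows, and with the fewest peaks; neighbours, the centromere-near group and the summit sites were added after values were seen. A few genes are counted in the totals but not reported here by name. Members and lists were chosen with earlier results of these data known. Near a centromere means beyond 22 Mb on 2L and X or 23 Mb on 3L, or below 5.5 Mb on 2R and 4 Mb on 3R. Python 3.11, pandas, numpy, scipy and matplotlib were used.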

Additional observations from a re-analysis of the deposited data

Results flagged for a closer look

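The effect of zld- at the RpS4 region shared with Syx13 differed between windows: it was -0.52 in the first window and 0.12 in the fourth window, a difference of 0.63 on the log2 scale (Wald test of the difference, adjusted p = 0.00203). The effect of zld- at RpL37-2 differed as well, from 0.36 to -0.12, a difference of -0.48 (adjusted p = 0.0422). The other RpS4 region, with its midpoint in the gene, did not pass this test (-0.39 and -0.05, adjusted p = 0.421). The libraries are 3 per group in both windows, and the number of libraries that show each direction could not be read from the deposited tables.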

How the results depend on the processing

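No paired analysis was possible because the deposited tables hold comparisons and not counts per library; for the same reason no replicate could be left out of them. Motif and start-site alternatives were not run, for lack of a genome and of strands, and for 1 region per gene the nearest gene end was used. With an adjusted p under 0.01 the share of the 75 regions called in at least 1 window was 13.3% lower and 1.33% higher in zld-, 1.33% lower and 4.0% higher in gd7, and 4.0% lower in cic6. With a log2 size of at least 0.5 it was 14.7% lower and 0.0% higher in zld-, 1.33% lower in gd7, and 1.33% lower and 6.67% higher in cic6. With the trend with mean count removed it was 14.7% lower in zld-, 1.33% higher in gd7, and 13.3% lower and 4.0% higher in cic6. Within 0.5 and 2 kb of a gene the lower share in gd7 was 1.67% and 4.12%. The other shares stayed within 1.5 times. The shares of all tested regions called in at least 1 window under these settings are not given here. These values therefore show only how the member shares moved. The count of regions whose zld- effect changed between windows went from 2 to 1 with an adjusted p under 0.01 and to 1 with the trend removed, alternatives chosen after seeing the data.

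Of the single calls of the genes reported here, 78 held and 5 did not after centring, 45 held and 38 did not at an adjusted p under 0.01, and with the trend removed 34 held, 36 no longer passed and 13 reversed, all in cic6 in the third window: RpL40 (-0.0381), RpL7 (-0.104), RpL9 (-0.00632), RpS15Ab (-0.0171), RpS24 (-0.0625), RpL41 (-0.0799), RpL19 (-0.0246), RpL28 (-0.0397), RpL14 (-0.123), RpS29 (-0.0973), RpS19b (-0.0186), RpS28a (-0.0373) and RpS19a (-0.066). The cause was not tested. The share of genes with a peak was 95.7% in OreR and 94.7% in cic6 when at least 0.5 of the peak had to lie inside. Within 300 bp of the gene ends it was 91.3% in OreR, 89.2% in gd7 and 92.2% in cic6. In lists of the shortest length it was 53.2% in OreR, 48.1% in zld-, 55.0% in gd7 and 54.7% in cic6. Leaving out each replicate gave 97.6% to 97.9% in OreR, 86.8% to 96.5% in zld-, 95.9% to 96.7% in gd7 and 96.3% to 96.9% in cic6. Read depth per library is unknown, which limits what a missing peak can show.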
